A study of Mus musculus with 2 samples.

Results

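Plasma cells are described here in 2 libraries of live CD45+ cells that were sorted from liver tumors of a lenvatinib-resistant mouse model of hepatocellular carcinoma (HCC). The Trp53KO/MYCOE tumors arose after hydrodynamic tail vein injection, into C57BL/6 J mice of wild-type genotype, of plasmids for activated MYC and for a guide RNA against Trp53, together with the sleeping beauty transposase, so that the drivers act in the liver cells that took up the plasmids while the immune cells are those of the host. All mice of both groups had received lenvatinib, a multikinase inhibitor, before the groups were formed. One library came from mice that went on receiving lenvatinib and the other from mice that received lenvatinib and palbociclib, an inhibitor of the cell cycle kinases CDK4 and CDK6 (combo). How many mice each library holds is not given in the sources used here. With 1 library per group there was no replicate, so treatment, mice and library preparation cannot be told apart, and all intervals below cover counting error only.

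A cell counted as a plasma cell when it held at least 5 unique molecular identifiers (UMIs, 1 per captured RNA molecule) of Jchain, 3 of Xbp1 and 2 of Mzb1, none of Siglech (plasmacytoid dendritic cells) or Ms4a1 (B cells), and at most 1 of Cd3d, Cd3e and Cd3g together (T cells). By this rule 42 plasma cells were found among 14201 cells of the lenvatinib library, and 33 among 11613 of the combo library, after removal of barcodes with over 6000 genes or over 25% mitochondrial UMIs. Jchain joins IgA or IgM units into polymers, Xbp1 is the transcription factor that enlarges the secretory machinery, and Mzb1 is a chaperone of the endoplasmic reticulum (ER) that assists antibody assembly. Because measured values of these genes chose the cells, their levels are given as description only.

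Plasma cells are the end stage of the B lineage. On activation a B cell shuts down the genes of B-cell identity under Blimp-1 (Prdm1), Irf4 and Xbp1, expands the ER and devotes much of its messenger RNA to 1 antibody. The heavy chain constant gene in use sets the antibody class, and IgA, exported across mucosal surfaces and into bile, is the class most associated with the gut and liver.

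The label held against genes that the rule did not use. Sdc1 (CD138, the classical plasma cell surface proteoglycan) had a UMI in 39 of the 42 lenvatinib cells and in 27 of the 33 combo cells. Tnfrsf17 (BCMA, the receptor for the survival factor APRIL) had one in 33 and in 27. Of the B cell program, some genes were at or near 0 and others were not. Pax5 had 0 UMIs in the lenvatinib cells and 1 in the combo cells, and Cd22 and Fcer2a had none in either library. Cd79a and Cd79b, the signalling chains of the antigen receptor, had a UMI in 40 and 37 of the 42 lenvatinib cells and in 33 and 29 of the 33 combo cells, Irf8 in 22 and 17, and Ebf1 in 18 and 14. No plasma cell barcode occurred in both libraries, which shared 49 barcodes in all, and Scrublet called none of the 42 or 33 cells a doublet.

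The plasma cell share of all cells was 0.296% (exact Clopper-Pearson 95% interval 0.213 to 0.400) under lenvatinib and 0.284% (0.196 to 0.399) under combo, a ratio of 0.961 (0.590 to 1.55). The interval includes ratios well above and well below 1, so neither a gain nor a loss of that size was detectable at this depth. Of plasma and B cells together, plasma cells were 10.6% under lenvatinib and 8.27% under combo, with overlapping intervals (7.77 to 14.1 and 5.76 to 11.4). The lowest Jchain count inside the rule was 75 UMIs under lenvatinib and 195 under combo, and no cell that met every other limit held 3 or 4, so the Jchain minimum fell in an empty range. Mzb1 was closer to its minimum, with a lowest count of 2 UMIs under lenvatinib and 3 under combo, and 7 and 4 cells missed only that minimum. Xbp1 had lowest counts of 4 and 5 UMIs, and 6 and 2 cells missed only its minimum. Ms4a1 alone kept out 4 cells under lenvatinib and 16 under combo, and the Cd3 limit alone kept out 13 and 12. Some cells outside the rule had at least 10% immunoglobulin UMIs. Of these, 27 under lenvatinib missed only minimums and 18 only limits, against 10 and 38 under combo.

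The plasma cells of the rule were large in RNA, but its UMI minimums favour deep barcodes. They held from 6476 to 50436 UMIs under lenvatinib, with a median of 17979.5, and from 3211 to 53432 under combo, with a median of 31664. The median B cell held 3477 UMIs under lenvatinib and 3726.5 under combo. Cells with at least 10% immunoglobulin UMIs that missed only minimums were shallow. Their medians were 2352 UMIs under lenvatinib (27 cells) and 3089.5 under combo (10 cells), so depth is in part a product of the rule. The plasma cells of the combo library were the deeper ones, and this difference in depth lies beside every share of cells with a UMI that follows.

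Immunoglobulin genes took up 40.9% of all UMIs of the plasma cells under lenvatinib and 51.9% under combo. Per cell the share ran from 12.6% to 58.8% around a median of 44.6% under lenvatinib, and from 17.3% to 75.9% around a median of 52.8% under combo. The ranges overlapped almost throughout, and the lower parts of the ranges differed most, with a lower quartile of 30.6% under lenvatinib and 49.1% under combo. In B cells of the same libraries immunoglobulin genes took up 1.22% and 1.23% of UMIs. The 42 lenvatinib plasma cells held 0.902% of the library's UMIs and 54.5% of its immunoglobulin UMIs, and the 33 combo cells held 1.08% and 42.7%.

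**Figure D1:**
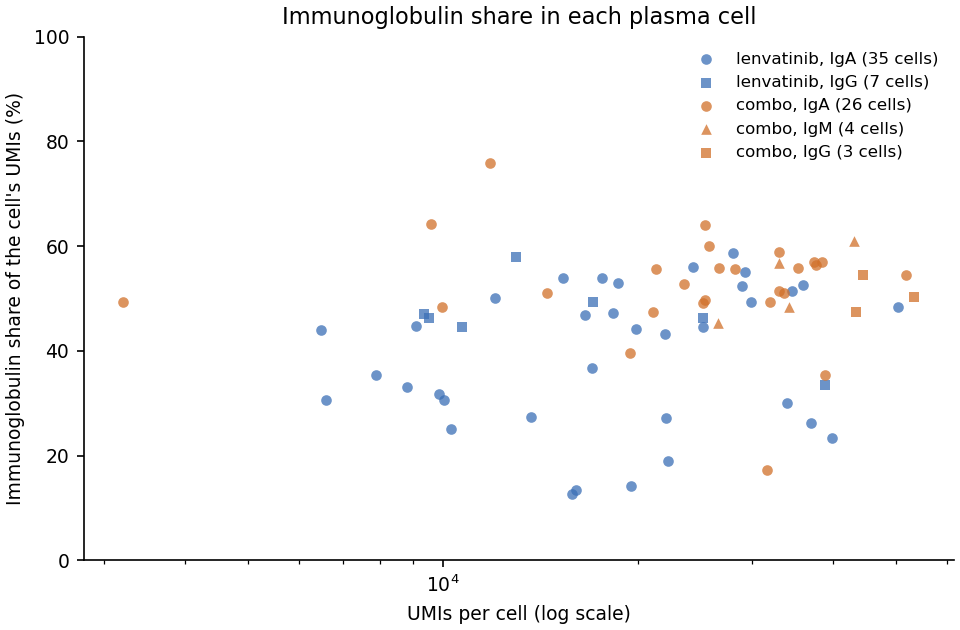
Immunoglobulin share of a cell's UMIs (%, vertical axis) against its UMIs (horizontal axis, log scale), 1 point per plasma cell, coloured by library and shaped by heavy chain class. Median shares were 44.6% under lenvatinib and 52.8% under combo, and cells below 40% came mostly from the lenvatinib library.

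Antibody class was assigned to a cell when 1 heavy chain constant gene held at least 50% of at least 10 heavy chain UMIs. Every plasma cell received a class, and the leading gene held 96.3% to 100% of the heavy chain UMIs under lenvatinib and 99.4% to 100% under combo. The genes lie next to each other on chromosome 12 (mm10), from Ighm at chr12:113418558-113422730 to Igha at chr12:113254830-113260236 on the minus strand, and class switching replaces the first by a later one. Most cells made IgA: 35 of 42 (83.3%, 68.6 to 93.03) under lenvatinib and 26 of 33 (78.8%, 61.1 to 91.0) under combo. Igha counts per cell had a median of 2204 UMIs and a maximum of 6213 under lenvatinib, and a median of 2873 and a maximum of 5122 under combo.

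The remaining cells differed in kind. Under lenvatinib all 7 were IgG, 4 of them IgG1, 2 IgG2c and 1 IgG2b. Under combo 4 were IgM (12.1%, 3.40 to 28.2), 2 were IgG2c and 1 was IgG2b. No lenvatinib cell was IgM, which allows a share of up to 8.41%, and no combo cell was IgG1, which allows up to 10.6%; both limits overlap the interval of the other library. Light chains were mostly kappa, in 41 of 42 and 31 of 33 cells, with lambda in 1 and 2.

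The rule bore on these shares. Among the 16 combo cells that missed it only for Ms4a1, 1 was IgA, 3 were IgM, and 12 were IgG (2 IgG1, 5 IgG2b, 4 IgG2c, 1 IgG3). These cells held 1 to 10 UMIs of Ms4a1 (median 3), a median of 31275.5 UMIs in all and immunoglobulin shares of 13.1% to 62.4%. Of the 4 such lenvatinib cells, 2 were IgA. The cells over the Cd3 limit were mainly IgA, 11 of 13 and 11 of 12. Among all cells in which immunoglobulin genes made up at least 10% of UMIs, whatever else they expressed, 73 of 94 were IgA under lenvatinib (77.7%, 67.9 to 85.6) and 45 of 82 under combo (54.9%, 43.5 to 65.9), while IgG made up 20 and 25 cells and IgM 1 and 12. So the IgA share was close between libraries among cells without Ms4a1, and lower under combo among all cells rich in immunoglobulin RNA, a set that was chosen after the values were seen.

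**Figure D2:**
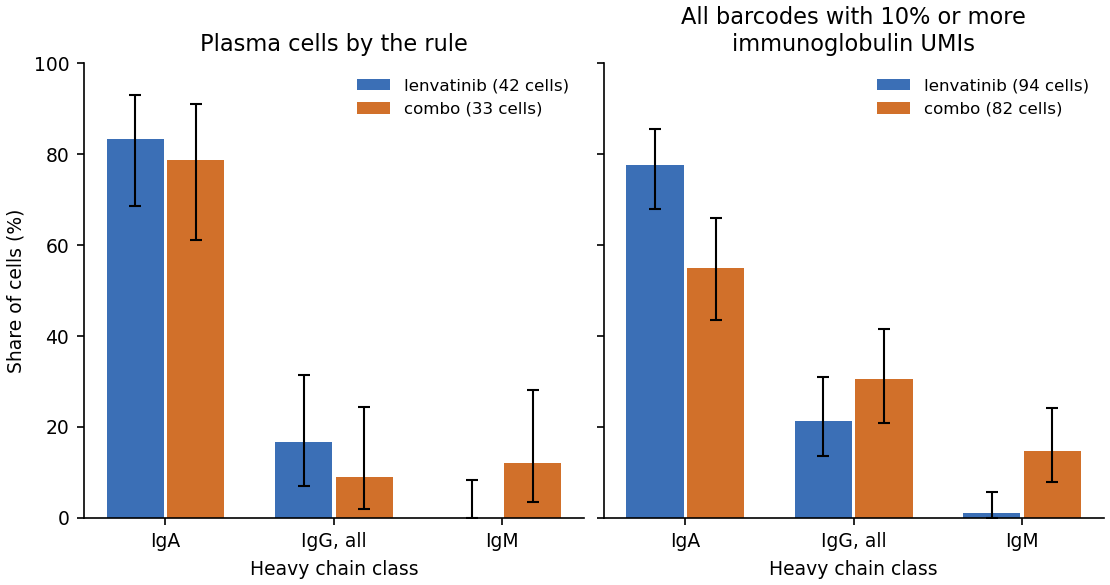
Share of cells (%) by heavy chain class and library, with exact 95% binomial intervals, for the plasma cells of the rule (left) and for all cells with at least 10% immunoglobulin UMIs (right). IgA held 83.3% and 78.8% on the left and 77.7% and 54.9% on the right.

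Immunoglobulin UMIs were also counted in T cells. Of 6599 lenvatinib T cells, which do not make antibody and were limited to fewer than 5 Jchain UMIs, 78.0% had an Igkc UMI, 56.1% an Igha UMI and 24.9% a Jchain UMI, at a median depth of 6458 UMIs. Of 5124 combo T cells, 87.0%, 44.5% and 31.2% did, at a median depth of 5814.5. The T cells held a mean of 2.10 and 2.69 Igkc UMIs, against 5276 and 10728 in plasma cells, and the heavy chain UMIs of a plasma cell had a median of 2632.5 and 3107.

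Variable genes gave a view of clonal make-up, with the limit that near-identical variable genes can trade reads and that the 3′ libraries reach this end of the transcript in few molecules. A heavy chain variable gene could be assigned (at least 10 UMIs and 50% of the cell's variable UMIs) in 29 lenvatinib and 30 combo cells. The lenvatinib cells used 12 different genes and the combo cells 20. Ighv1-81 led in both libraries, in 13 of 29 lenvatinib cells (12 IgA and 1 IgG2b) and in 4 of 30 combo cells, all IgA. In those cells it held 13 to 84 UMIs (median 21) and 17 to 100 UMIs (median 30.5), whereas in T cells it appeared in 0.394% and 0.0781% of cells with at most 2 and 1 UMIs. With the light chain added, Ighv1-81 was paired with Igkv1-117 in 3 lenvatinib cells and with Igkv1-110 in 2, and with Igkv10-96 in 2 combo cells. The other pair seen more than once was Ighv9-3 with Igkv1-117, in 2 combo IgA cells. Of the 24 lenvatinib and 28 combo cells with both chains assigned, 21 and 26 distinct pairs were found. Iglv1 led in 6 lenvatinib and 2 combo cells whose constant gene was kappa, so single light chain assignments are uncertain.

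The genes that separate plasma cells from B cells were next counted in the same libraries, as CPM (the UMIs of a gene scaled to a common total of UMIs outside immunoglobulin genes), summed over the cells of a class. B cells were chosen by at least 2 UMIs of Ms4a1 and of Cd79a and fewer than 5 of Jchain, so these are descriptions of both definitions and not tests. Among 8594 genes, 7.48% were at least 2-fold higher in plasma cells in both libraries and 19.3% at least 2-fold lower.

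Transcription factors of the plasma cell program were higher in 6 of 8, among them Xbp1, whose place the rule fixed. Prdm1 (Blimp-1, the repressor of B-cell identity) stood at 278 CPM under lenvatinib and 188 under combo, against 9.96 and 7.73 in B cells. Eaf2, which with Ell2 (357 and 250 CPM) aids the processing of secretory heavy chain messages, stood at 353 and 284 CPM against 9.30 and 5.95. Pou2af1 (OCA-B, a coactivator of immunoglobulin promoters) was 2.16-fold and 2.45-fold higher than in B cells. Irf4 differed little, at 1.25 and 1.38 times the B-cell level, and Ikzf3 (Aiolos) was lower, at 0.398 and 0.409 times.

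The B cell program was lower in 14 of 14 measured genes, with a median log2 ratio of -4.76 under lenvatinib and -4.79 under combo (genes at 0 UMIs set at 3 counts). Ebf1, which specifies the B lineage, stood at 1598 CPM in B cells and 61.2 in plasma cells under lenvatinib. Parts of the antigen receptor stayed measurable: Cd79a, one of the genes that chose the B cells, stood at 486 and 913 CPM in plasma cells, 0.261 and 0.442 times the B-cell level. Of 8 MHC class II genes 7 were lower in both libraries, for example H2-Aa at 162 and 113 CPM against 2705 and 3818. Cd74, the invariant chain, was the exception among them, with 0.524 and 0.494 times the B-cell level and 4 to 297 UMIs in every plasma cell.

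The secretory machinery was higher as a whole: 19 of 22 ER chaperones and folding enzymes, 19 of 21 genes of the translocon, signal peptidase and N-glycosylation, 11 of 11 of ER-associated degradation and 10 of 12 of ER to Golgi transport passed 2-fold in both libraries, and none was 2-fold lower. The 19 chaperones and folding enzymes include Mzb1 (15.7-fold and 15.4-fold), whose place the rule fixed. Derl3, a channel subunit for the export of misfolded proteins, was at 436 and 524 CPM in plasma cells and 0.664 and 2.38 in B cells. Txndc5, a disulfide isomerase, and Prdx4, an ER peroxidase, were 34.7-fold and 35.4-fold higher under lenvatinib and 41.96-fold and 30.9-fold higher under combo. Hsp90b1 (GRP94), a chaperone of antibody chains, was 13.6-fold and 12.9-fold higher, and Hspa5 (BiP, which holds unpaired heavy chains) 3.47-fold and 2.89-fold. Of 7 measured genes of the stress arms of the unfolded protein response, sensors and downstream genes together, 3 were higher and 1 lower. Over all 8594 genes 7.48% were higher and 19.3% lower. The median log2 ratios of this list were 0.16 under lenvatinib and -0.52 under combo, below those of the secretory lists. Slc7a5, an amino acid transporter, and Enpp1, a pyrophosphatase of plasma cells, were 5.94-fold and 11.7-fold higher under lenvatinib.

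**Figure D3:**
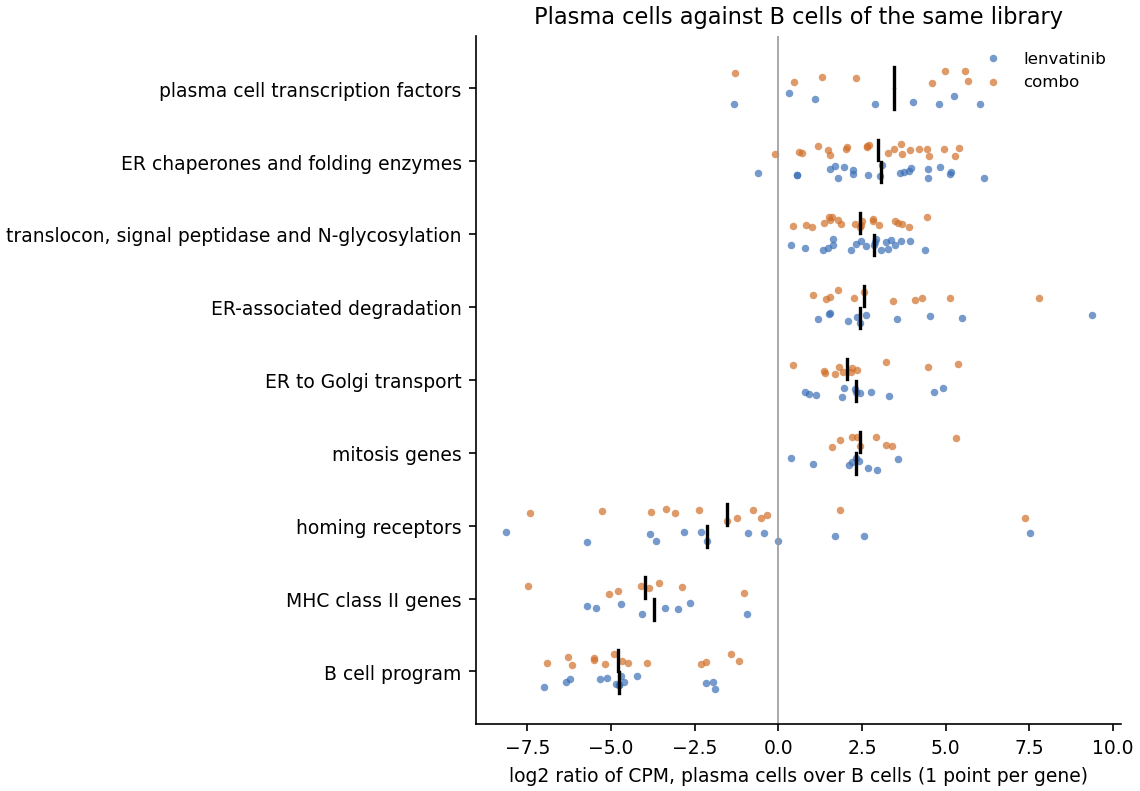
Log2 ratio of CPM in plasma cells over B cells of the same library (horizontal axis), 1 point per gene and library, with the list median as a black line and genes at 0 UMIs placed at the bound that 3 counts give. The medians of the 4 secretory lists lie above 0 in both libraries, and that of the B cell program at -4.76 and -4.79.

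Promoters of these genes, from 250 bases before to 50 after the start in RefSeq (GRCm38.p6), were searched on both strands for the ER stress element ERSE (CCAAT, then 9 bases of any kind, then CCACG), for ERSE-II (ATTGG, then 1 base of any kind, then CCACG) and for UPRE (TGACGTGG), which ATF6 and XBP1 are known to bind. ERSE was found in 7 of the 18 ER chaperone genes that had a promoter sequence (38.9%), namely Calr, Canx, Creld2, Dnajc3, Hsp90b1, Hspa5 and Pdia6, and in 37 of 27025 genes in all (0.137%). It was in Derl3 and Syvn1 among 10 genes of ER-associated degradation and in none of 15 translocon genes, although the latter were as a list also higher in plasma cells. A match describes the letters and not a bound site. Shown are the promoters of 4 genes that were at least 2-fold higher in plasma cells than in B cells in both libraries, with ERSE in capitals. Hspa5 lies at chr2:34771840-34772139 on the plus strand, Hsp90b1, with 2 matches, at chr10:86705395-86705694 on the minus strand, Creld2 at chr15:88819396-88819695 on the plus strand and Derl3 at chr10:75893148-75893447 on the plus strand. In Hspa5 the match begins at position -65 from the start, in Hsp90b1 at -212 and -107, in Creld2 at -126 and in Derl3 at -156. The match of Hsp90b1 at -107 and those of Creld2 and Derl3 lie on the opposite strand.
Hspa5: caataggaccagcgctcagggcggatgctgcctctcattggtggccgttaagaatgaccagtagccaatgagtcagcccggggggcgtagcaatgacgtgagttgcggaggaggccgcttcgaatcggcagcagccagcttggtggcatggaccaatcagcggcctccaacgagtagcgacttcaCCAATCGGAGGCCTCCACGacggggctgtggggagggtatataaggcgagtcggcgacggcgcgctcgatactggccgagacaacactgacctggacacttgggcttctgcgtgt
Hsp90b1: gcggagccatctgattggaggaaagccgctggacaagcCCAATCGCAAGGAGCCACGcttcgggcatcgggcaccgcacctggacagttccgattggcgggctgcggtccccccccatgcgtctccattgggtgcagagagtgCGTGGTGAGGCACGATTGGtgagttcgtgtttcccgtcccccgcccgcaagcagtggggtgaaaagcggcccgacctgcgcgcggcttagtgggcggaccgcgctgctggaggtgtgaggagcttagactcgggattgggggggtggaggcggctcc
Creld2: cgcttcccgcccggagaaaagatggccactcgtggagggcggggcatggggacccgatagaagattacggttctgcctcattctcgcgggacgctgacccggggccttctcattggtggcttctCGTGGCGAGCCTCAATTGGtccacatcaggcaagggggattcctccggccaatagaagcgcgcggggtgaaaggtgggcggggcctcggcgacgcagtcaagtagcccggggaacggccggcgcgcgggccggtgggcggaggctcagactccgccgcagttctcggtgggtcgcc
Derl3: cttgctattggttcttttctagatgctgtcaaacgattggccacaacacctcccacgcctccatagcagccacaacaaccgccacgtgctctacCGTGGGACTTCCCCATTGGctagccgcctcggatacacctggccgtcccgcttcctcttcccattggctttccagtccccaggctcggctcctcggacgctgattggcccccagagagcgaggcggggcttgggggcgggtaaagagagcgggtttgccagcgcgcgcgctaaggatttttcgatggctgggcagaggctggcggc

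The genes that most set plasma cells apart from all other cells of the tumors, beside the rule genes Jchain and Mzb1, were Tnfrsf17, Ccr10, Derl3, Cacna1s, Prg2, Sdc1, Eaf2, Txndc5, St8sia6, Fkbp11, Pou2af1, Gm30211 and Prdx4. Ccr10, the receptor for the epithelial chemokines CCL27 and CCL28, stood at 365 CPM under lenvatinib and 293 under combo, and no B cell had a UMI. With B cells set at 3 counts, plasma cells were 183-fold and 164-fold higher, with lower 95% limits of 148 and 132. Cacna1s, a calcium channel subunit best known from skeletal muscle, was at 150 and 297 CPM and in 27 of 42 and 29 of 33 cells. Among other homing receptors Itga4, an integrin chain, was at a level like that of Ccr10 under lenvatinib, with 173 UMIs in 34 of 42 cells, and had 70 UMIs in 28 of 33 combo cells. Ccr9, the receptor of the small intestine, had 8 and 2 UMIs in all, and Cxcr4, the receptor of bone marrow, 23 and 22. Receptors of recirculating B cells were near 0, with 2 UMIs of S1pr1 in each library and none of Cxcr5.

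IgA cells were then compared with the cells of other classes. Ly6c2, a surface protein of the Ly6 family, had 0 to 71 UMIs per cell (median 5) in the 35 lenvatinib IgA cells and 7 to 180 (median 127) in the 7 IgG cells, and 0 to 63 (median 3) in the 26 combo IgA cells against 3 to 125 (median 18) in the 7 others. The groups overlapped in both libraries. Under lenvatinib 4 IgG cells, with 127, 146, 178 and 180 UMIs, lay above every IgA cell, and 3 of them were IgG1 cells. These 3 were led by Ighv1-52, with only 9, 3 and 2 heavy chain variable UMIs, too few for an assignment. Their leading light chain gene was Iglv1 although their constant gene was kappa, so that lead is uncertain too. The other 3 IgG cells held 7, 11 and 25 Ly6c2 UMIs. Under combo 2 IgG2c cells, with 107 and 125 UMIs, lay above every IgA cell, and the 4 IgM cells held 3 to 63. As CPM, IgA cells had 0.0799 times (0.0699 to 0.0911) the level of the other cells under lenvatinib and 0.395 times (0.338 to 0.462) under combo, and most Ly6c2 UMIs of the other classes were in those 4 and 2 cells. Ccr10 went the other way. It had a UMI in 30 of 35 and 22 of 26 IgA cells and in 2 of 7 cells of other classes in each library, at 398 CPM against 158 under lenvatinib and 403 against 15.1 under combo. Ly6a (Sca-1) was lower in IgA cells, at 0.409 and 0.352 times the level of the others. Hes1, a Notch target, and Hvcn1, a proton channel, were higher in IgA cells, 4.35-fold and 4.46-fold under lenvatinib and 4.27-fold and 5.95-fold under combo, with at most 9 UMIs in the other cells. Oosp1 and Mt2 (a metallothionein) were lower in both libraries. As summed CPM, S100a8 and S100a9, which neutrophils express, were higher among IgA cells. The median S100a8 count per cell was 1 on both sides under lenvatinib. Under combo it was 14 in IgA cells and 21 in the others. Of the S100a8 UMIs of the lenvatinib plasma cells 92.7% came from 1 cell, and 2 combo IgA cells held 2254 and 1891 of 4592.

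**Figure D4:**
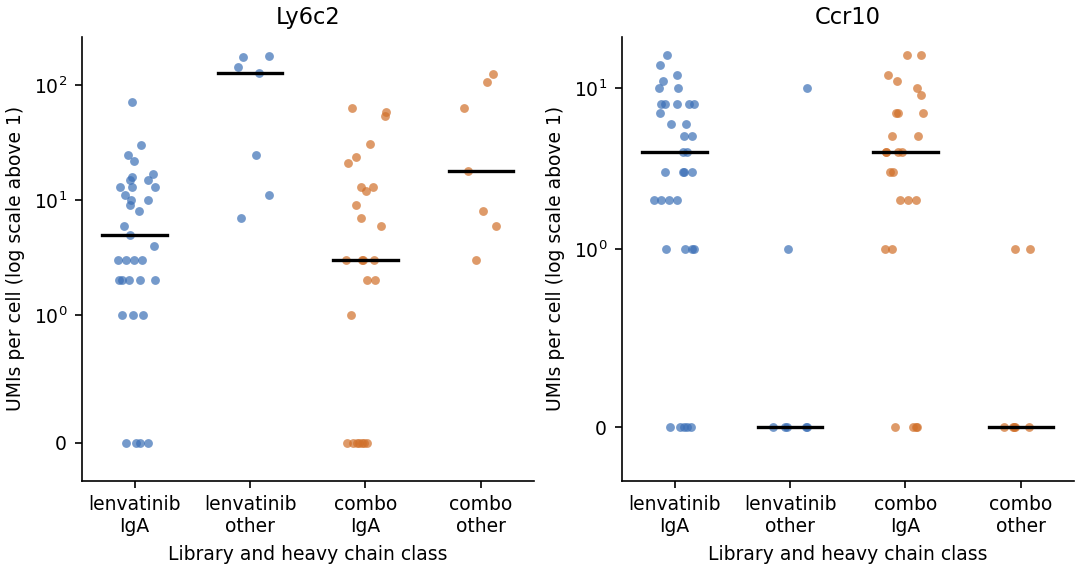
UMIs per cell of Ly6c2 (left) and Ccr10 (right), 1 point per plasma cell, by library and by IgA against other classes, with medians as black lines and an axis that is linear up to 1 and logarithmic above. Ly6c2 medians were 5 and 127 under lenvatinib and 3 and 18 under combo.

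Combo was then set against lenvatinib within plasma cells. Of 6774 genes with at least 10 UMIs in both libraries together, 4.25% were at least 2-fold higher under combo and 16.8% at least 2-fold lower, and the median log2 ratio was -0.30, so that a list near -0.30 lies with the bulk of genes. Genes of dividing cells were among the lists with the lowest medians.

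Of 10 mitosis genes 7 were at least 2-fold lower under combo and none higher, with a median log2 ratio of -1.37. Of 10 S phase genes 7 were lower and none higher (median -1.29, or -0.65 with the cells that held Ms4a1 included). Mki67, the proliferation antigen, had 251 UMIs in the lenvatinib cells and 63 in the combo cells, or 495 and 135 CPM, a ratio of 0.272 (0.203 to 0.359). It had a UMI in 23 of 42 lenvatinib cells with at most 88 UMIs, and in 7 of 33 combo cells, where 1 cell held 55 of the 63. Top2a, which untangles replicated DNA, showed the same shape with 108 UMIs against 36, of which 33 lay in 1 combo cell. Without the plasma cell with the most mitosis UMIs in each library the median of the list was -4.18 over 8 genes. So 1 combo cell held most of the mitosis UMIs of the combo plasma cells. The 634 mitosis UMIs of the lenvatinib plasma cells were also uneven, from 0 to 199 per cell with a median of 2. With the Cd3 sum held at 0 the medians were -1.03 for mitosis genes and -0.97 for S phase genes. Without cells over 100 S100a8 UMIs they were -1.08 and -1.23, and with Cd3 not limited -1.80 and -1.54.

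Counted by cell, at least 2 of the 10 mitosis genes were detected in 7 of 42 lenvatinib plasma cells (16.7%, 6.97 to 31.4) and 1 of 32 combo cells (3.13%, 0.0791 to 16.2) after each cell was thinned to 2000 UMIs outside immunoglobulin genes, 1 combo cell being too shallow. Without thinning it was 20 of 42 (47.6%) and 6 of 33 (18.2%), although the combo cells were deeper. The intervals of the thinned shares overlap. T cells and B cells of the same libraries showed the same order, with 9.43% and 2.38% of T cells and 2.66% and 0.556% of B cells. Against B cells, 8 of 9 mitosis genes were at least 2-fold higher in plasma cells in both libraries, but 1 combo cell held 199 of the 222 mitosis UMIs of the combo plasma cells. The thinned share of combo plasma cells overlapped that of B cells (0.0674 to 1.99).

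The targets of palbociclib were weakly expressed. Cdk4 had 41 and 35 UMIs in all and Cdk6 23 and 7, and Ccnd2, the main D-type cyclin here, 153 and 127, or 302 and 271 CPM. Of 15 genes of the CDK4/6 pathway 4 were at least 2-fold lower under combo: Cdk6, E2f2, Rbl1 and Cdk2. The median of the list was -0.36, near that of all genes. E2f2 stood at 65.1 and 17.1 CPM, with a ratio of 0.262 (0.105 to 0.580), while the interval of Cdk2 included 1. Inhibitors were unequal, with Cdkn1b (p27) at 73.0 and 64.1 CPM and Cdkn2c (p18, needed for plasma cell differentiation) at 33.6 and 19.2.

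**Figure D5:**
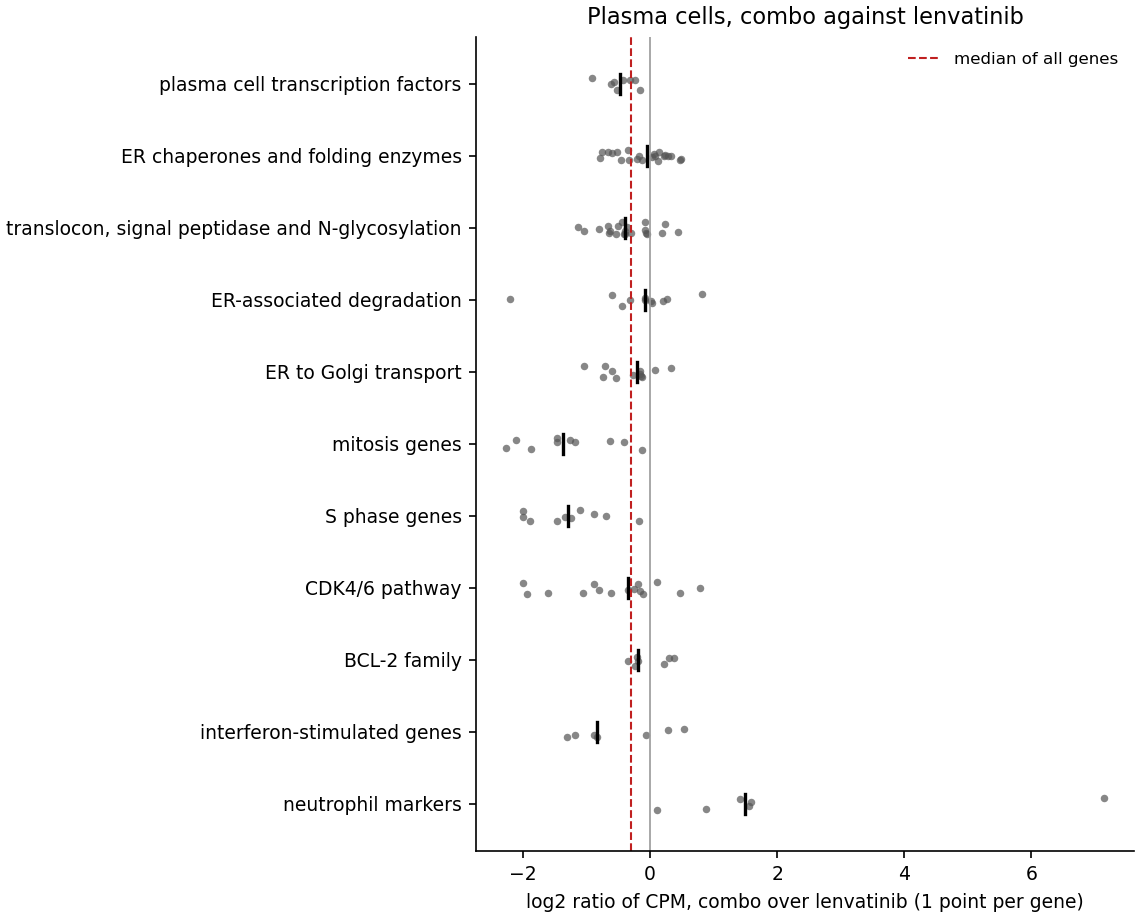
Log2 ratio of CPM in plasma cells, combo over lenvatinib (horizontal axis), 1 point per gene with at least 10 UMIs, list medians as black lines and the median of all 6774 genes as a dashed line at -0.30. Medians were -1.37 for mitosis genes and -1.29 for S phase genes, and 1.49 for neutrophil markers.

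Secretory genes differed little. None of 22 ER chaperones and folding enzymes, of which Mzb1 is a rule gene, passed 2-fold either way (median log2 ratio -0.05). The median was 0.17 with cells that held Ms4a1 included and 0.28 with the Cd3 sum held at 0. Hspa5 stood at 2626 and 1831 CPM, a ratio of 0.698, and Hsp90b1 at 5377 and 3543, a ratio of 0.659, but both directions turned with the cells that held Ms4a1 included (log2 ratios 0.030 and 0.042), whereas Sdf2l1, Dnajc3 and Creld2 were at 1.40, 1.26 and 1.18 times. Of 11 genes of ER-associated degradation 1 was lower. That was Edem3, a mannosidase that marks misfolded glycoproteins, at 118 and 25.6 CPM. Edem3 was also lower under combo in all other cells, at 19.9 and 10.1 CPM. Herpud1, a stress-inducible member of the same machinery, was at 819 and 1443 CPM in plasma cells. Of 21 genes of translocation and glycosylation 2 were lower, Rpn1 (ratio 0.484) and Ssr1 (0.457), and the median was -0.40. With the cells that held Ms4a1 included, neither passed 2-fold (log2 ratios -0.44 and -0.47) and the median was 0.0073. All 8 plasma cell transcription factors, of which Xbp1 is a rule gene, had ratios below 1, between 0.531 (Ikzf3) and 0.894 (Xbp1). None passed 2-fold and the median was -0.47. Of all 6774 genes only 2157 had a ratio above 1, so ratios below 1 were also the more common case outside this list. The direction turned for Eaf2 with the cells that held Ms4a1 included (log2 ratio 0.060), and for Xbp1 with the Cd3 sum at 0 (0.033) or not limited (0.0060).

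Among surface and survival receptors 13 could be measured. Tnfrsf17 was level, with 276 and 274 CPM and a ratio of 0.990 (0.773 to 1.27), as were Tnfrsf13b (TACI, 0.941) and Sdc1 (0.901). Ly6a was the member that was higher, 1445 against 3293 CPM. Its medians were 8.5 and 24 UMIs per cell, the combo cells being deeper, with a highest combo cell of 409. Within IgA cells Ly6a stood at 1206 and 2164 CPM, short of 2-fold, and in the other classes at 2946 and 6141. The 7 combo cells of other classes held 816 of the 1541 combo UMIs. Cd93, a marker of long-lived plasma cells, was the member that was lower, 98.7 against 38.5 CPM, a ratio of 0.390 (0.214 to 0.680), which did not pass 2-fold with no limit on Cd3 (log2 ratio -0.72). Among homing receptors Itga4, the integrin chain of VLA-4 and of the gut receptor with Itgb7, was lower, 342 against 150 CPM (ratio 0.438, 0.327 to 0.581). Survival genes of the BCL-2 family held their level: of 7 measured none passed 2-fold, and Mcl1, on which plasma cells depend, had a ratio of 1.23. Slc3a2, the heavy subunit of amino acid transporters, was higher, 233 against 541 CPM. With the cells that held Ms4a1 included, Ly6a, Itga4 and Slc3a2 did not pass 2-fold (log2 ratios 0.96, -0.80 and 0.87), nor did Slc3a2 with no limit on Cd3 (0.96). Of 7 interferon-stimulated genes 2 were lower and none higher (median -0.83, or -0.27 with those cells included). Summed over the list, the level went from 1224 to 855 CPM in plasma cells and from 1158 to 824 in all other cells.

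Among the genes highest under combo was Prg2, which codes for the eosinophil granule major basic protein and was among the leading plasma cell genes in both libraries. It had 0 to 40 UMIs per cell (median 2) under lenvatinib and 0 to 279 (median 8) under combo, in 33 of 42 and 32 of 33 cells, or 448 and 1926 CPM. The ratio was 4.30 (3.71 to 4.99), and the single-cell ranges overlapped. One combo cell held 31.0% of the combo UMIs. B cells had 1.33 and 1.78 CPM.

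The other genes that were highest under combo were Wfdc21, G0s2, S100a6, Wfdc17, Il1b, Alox5ap, Ifitm2, Pglyrp1 and Cyp4f18, most of them genes of neutrophils and other myeloid cells. With the Cd3 sum at 0, Cyp4f18 still passed 2-fold (log2 ratio 1.79), while Wfdc21 was at -0.20 and the other 7 lay between 0.10 (S100a6) and 0.81 (Il1b), and Prg2 was at 1.54. Of 6 neutrophil markers 4 were at least 2-fold higher under combo and none lower (median 1.49), and the median was -1.77 when no Cd3 UMI was allowed. Their summed level ran from 0 to 2432 UMIs per plasma cell (median 4) under lenvatinib and from 8 to 3932 (median 34) under combo. S100a8 was detected in 33 of 42 and 33 of 33 plasma cells, and also in 54.8% and 97.0% of T cells. Without the 1 lenvatinib and 2 combo cells with over 100 S100a8 UMIs, the log2 ratio of S100a6 went from 2.70 to 1.08 and that of Prg2 from 2.10 to 2.16. The genes lowest under combo were Gzma, Hmgn2, Tardbp, Edem3, Ly6k, Sod1, Kctd12, Suz12, Mki67 and Ddx3x. Gzma, a granule protease of cytotoxic lymphocytes, went from 96 to 15 UMIs, and the 6 NK cell markers, with a median log2 ratio of -1.57 over 4 genes, from a summed 174 to 52 UMIs with a highest lenvatinib cell of 51. T cell markers summed to 65 and 54 UMIs, with at most 5 per cell, erythroid markers to 4 and 3, and hepatocyte markers to 9 and 7. Macrophage and monocyte markers summed to 71 and 177 UMIs (median log2 ratio 1.94 over 2 genes), and plasmacytoid dendritic cell markers to 816 and 716, with Siglech at 0 by the rule. Ly6k came from few cells, 4 under lenvatinib and 1 under combo, and 1 lenvatinib cell held 74 of its 104 UMIs. Of the 132 Kctd12 UMIs under lenvatinib, 1 cell held 78. Kctd12 did not pass 2-fold with the Cd3 sum at 0 (log2 ratio -0.95), nor Ly6k with no limit on Ms4a1 (-0.81). In all other cells of the libraries, Gzma went from 1292 to 564 CPM, Mki67 from 168 to 52.7 and Ddx3x from 357 to 203. There Tardbp went from 129 to 63.6 CPM, Suz12 from 116 to 66.5, Sod1 from 172 to 110 and Edem3 from 19.9 to 10.1. Hmgn2 (181 and 234 CPM), Ly6k (1.89 and 1.93) and Kctd12 (128 and 130) were not lower there. The part of other cells' RNA in the plasma cell differences was not tested.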

How the data were processed

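Gene counts per barcode were obtained by the authors with Cell Ranger from 10x 3′ libraries aligned to mm10, and the deposited values are unnormalized UMI counts. The submitters' notes name version 5.0.1 and the matrix headers 6.0.1. Samples were grouped by their labels, 1 library per group, of 98107503 (lenvatinib) and 93583402 (combo) UMIs. Counts were summed over plasma cells and scaled to the UMIs outside immunoglobulin genes (CPM), in Python 3.11.15 with numpy 2.4.6, scipy 1.17.1 and pandas 2.3.3. Doublets were called with Scrublet in scanpy 1.11.5 and kept. B cells had at least 2 UMIs each of Ms4a1 and Cd79a, T cells at least 3 of Cd3d, Cd3e and Cd3g, and both fewer than 5 of Jchain. Ratios have exact conditional Poisson intervals and shares exact Clopper-Pearson intervals, both at 95% and for counting error only. No test between the groups was possible. Genes with at least 10 UMIs over both libraries were compared. Named genes were members of the lists, the 10 highest and 10 lowest ratios under combo (at least 10 UMIs in each library and 100 CPM in 1), the 15 highest against all other cells, the 5 highest and 5 lowest between IgA and other cells, and the most used variable genes. The scripts were tested on simulated data. The members and gene lists were chosen with earlier results of these data known. Alternatives changed the cell rule, the filters, the CPM total and the weights of cells. Gene coordinates are from GENCODE vM21 and promoters from RefSeq.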

Additional observations from a re-analysis of the deposited data

How the results depend on the processing

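With 1 library per group no alternative could include leaving out a replicate. No paired analysis was possible because each group had 1 library and no test was made. Of 145 values that answer a comparison, recomputed under the alternatives, 123 held within their interval or within 1.5 times the count, and 22 did not. The Jchain minimums of 10 and of 3 and the removal of called doublets left the same plasma cells. Values of those cells alone could not move under these alternatives, yet they are counted among the 123. The immunoglobulin share under lenvatinib was 40.7% with no cell filter, 39.9% with no limit on Ms4a1, 36.6% with no limit on Cd3, 41.6% without cells over 100 S100a8 UMIs and 44.6% as the median over cells. Under combo it was 46.3%, 50.3%, 52.9% and 52.8% for the last 4 of these. The kappa share under lenvatinib was 100% without cells over 100 S100a8 UMIs, and the IgA share under combo was 55.1% with no limit on Ms4a1. The share with mitosis genes was 47.6% and 18.2% when cells were not thinned, and 54.8% under lenvatinib with at least 1 gene. Genes at least 2-fold higher and lower under combo numbered 183 and 1826 with all UMIs as the CPM total (which moved the median of all genes to -0.60), 72 and 341 with at least 30 UMIs, and 826 and 1761 with at least 1 UMI in each library. Against B cells the total of all UMIs gave 237 higher and 4280 lower. Named genes changed sign in 55 values over 29 genes, most of them with a ratio whose interval included 1. Where the interval excluded 1, 9 log2 ratios changed sign: Mzb1 (-0.15) with all UMIs as the total, S100a8 (-2.27), S100a9 (-1.69), Wfdc21 (-0.20) and Xbp1 (0.033) with the Cd3 sum at 0, Hsp90b1 (0.042) and Hspa5 (0.030) with no limit on Ms4a1, and Ly6c2 (0.054) and Xbp1 (0.0060) with no limit on Cd3. The cause was not tested. The settings without a limit on Ms4a1 or Cd3, without cells over 100 S100a8 UMIs and without the cell with the most mitosis UMIs were chosen after seeing the data. The 42 and 33 cells limit every share, and genes under 10 UMIs were not compared.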
